A study of Homo sapiens with 6 samples.

Results

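The transcripts described here come from 45 genes that build the kinetochore, run the spindle assembly checkpoint and carry out spindle assembly, chromosome separation and cytokinesis. They were taken by gene symbol from the platform annotation, which holds all 45, with 88 probe sets between them. All 45 stood above the expression filter and were among the 12935 genes tested. RNA was taken from SAS, a human cell line grown from an oral squamous carcinoma, and hybridised to 6 Affymetrix arrays. The cells were transfected with control siRNA (siCtrl) or siRNA against CYLD (siCYLD), grown for 2 days and then held for 48 h in medium free of serum. During those 48 h the cells received DMSO (called untreated) or a compound that blocks ALK5, the type I receptor through which TGF-β signals. Each siRNA was represented by 2 arrays without the inhibitor and 1 array with it. The labels do not say whether the CYLD siRNA was 1 sequence or a pool, and its effects on other transcripts cannot be told apart from loss of CYLD. No dose or compound name for the inhibitor was used here.

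The kinetochore is the protein assembly that joins a chromosome's centromere to spindle microtubules. Its inner layer sits on nucleosomes with the histone variant CENPA, and its outer layer grips microtubule ends. While any kinetochore is unattached, the spindle assembly checkpoint holds back the anaphase-promoting complex, and once it is satisfied separase cuts cohesin and the cell divides. Many of these genes are transcribed mainly in G2 and M phase, through promoters bound by the DREAM and MYBL2-MuvB complexes and by FOXM1, so their RNA is widely read as a measure of dividing cells.

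Values are MAS5 signals on a linear scale, 1 per probe set and array. Each gene is represented by its brightest kept probe set, and differences are log2 differences of the signal plus an offset of 16.1, given ± the standard error of the limma fit. Adjusted p-values are from limma with Benjamini-Hochberg adjustment over all 12935 genes, two-sided, and a gene is called at an adjusted p below 0.05. Whether duplicates came from separate cultures is not stated, so the p-values reflect array-to-array spread that could be purely technical. Titles and source names disagreed for siCtrl replicate 2 and siCYLD replicate 1. Where signals of a gene are listed, replicate 1 precedes replicate 2, and the inhibitor arrays follow as siCtrl then siCYLD. Groups followed the titles, and results are also given without both of these arrays. CYLD itself, by its brightest probe set, read 411 and 499.5 in untreated siCtrl, 278 and 230.4 in untreated siCYLD, 349 in siCtrl with inhibitor and 176 in siCYLD with inhibitor, a knockdown difference of -0.80 ± 0.18 without inhibitor. Its 3 other kept probe sets were lower in untreated siCYLD as well: one went from 485 and 549.9 to 77.2 and 125, another from 350.5 and 355 to 134 and 147, and the last from 336 and 236 to 171 and 164. In every kept CYLD probe set, both untreated arrays titled siCtrl thus read above both titled siCYLD. In the last, siCtrl replicate 2 (236) lay nearer to the siCYLD arrays than to siCtrl replicate 1 (336). Over genes, the untreated duplicates as titled correlated at 0.987 (siCtrl) and 0.988 (siCYLD). Untreated arrays of unlike siRNA correlated at 0.964 to 0.966. Of 10 squamous epithelial markers listed, 7 had a probe set annotated to that gene alone, and all 7 passed the filter. Their summed signals were 58578 and 57877 in siCtrl and 57492.5 and 57645.7 in siCYLD without inhibitor, and 69407 and 58295 with it. Fibroblast markers passed in 5 of 9 genes (COL3A1, LUM, PDGFRA and THY1 did not). Of 8 leukocyte markers listed, 6 had such a probe set and 2 passed (PTPRC, CD14, LYZ and MS4A1 did not). Endothelial markers passed in 3 of 6 (KDR, TEK and CLDN5 did not). Without inhibitor the fibroblast, leukocyte and endothelial sums were 1131 to 1407, 312 to 335 and 304 to 388.

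With the CYLD siRNA and no inhibitor, the mitotic genes fell together. Of the 45, 39 were lower and 0 were higher (43 lower and 0 higher at an unadjusted p below 0.05, limma). Among all genes tested, 11.8% were called lower and 9.49% higher. The 45 were chosen with earlier results of these data known, so an excess over these shares is not an independent result. The median difference was -1.34, against -0.041 over all genes, and 29 members were both called and at least 2-fold lower, against 2.33% of all genes. CENPI was also past 2-fold but was not called. The median member kept 37.7% of its siCtrl signal, with a range from 4.56% for CKAP2L to 103% for MIS12. Both siCYLD arrays read below both siCtrl arrays for 44 members, compared with 34.1% of all genes in that direction. Since these are bulk samples, fewer dividing cells and less of each transcript per cell cannot be told apart.

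**Figure D1:**
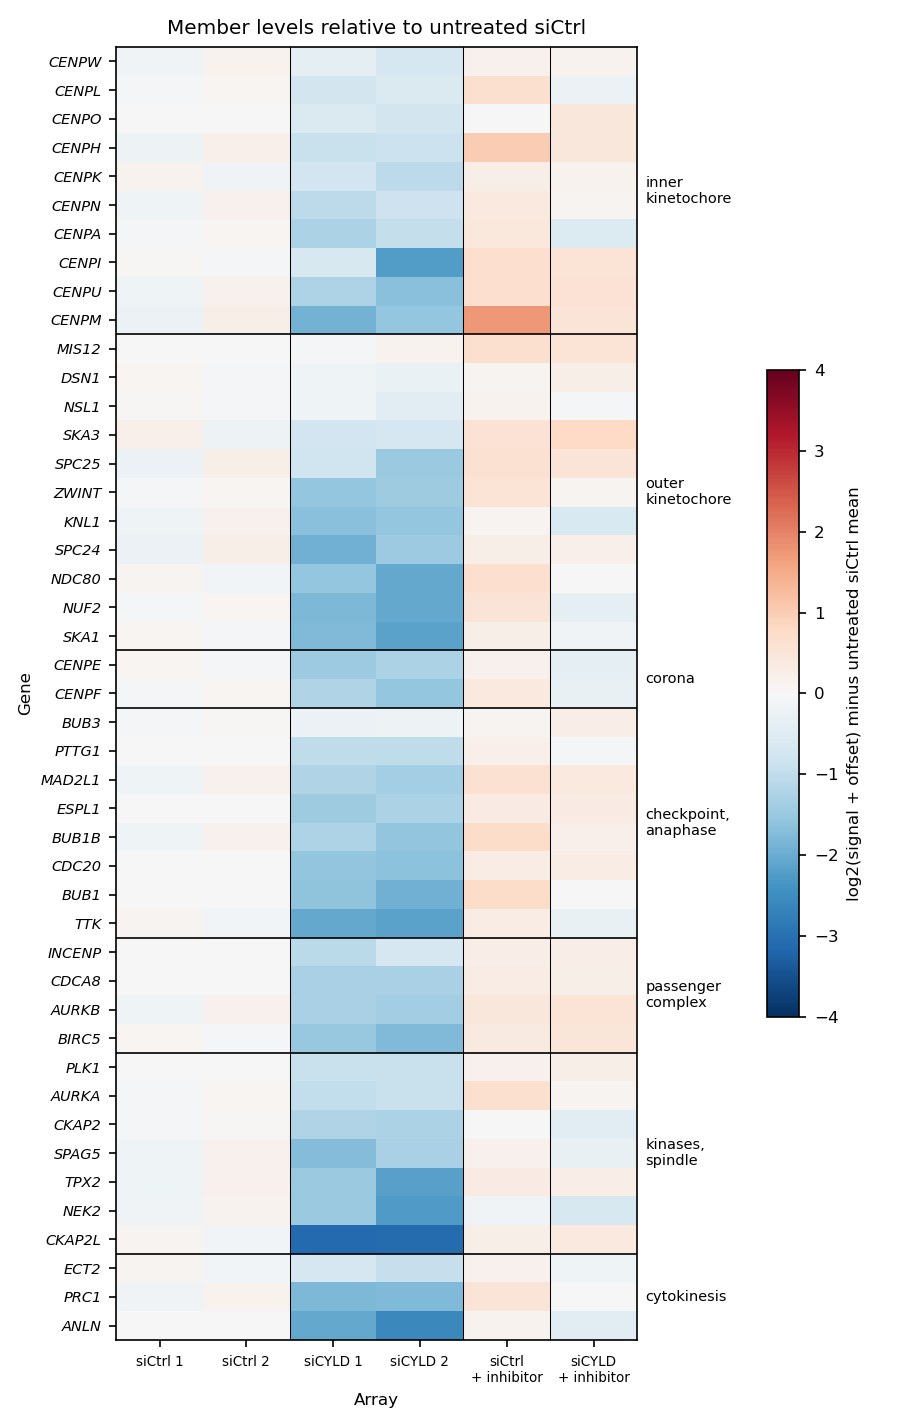
Heat map of the 45 genes (rows, grouped by role) on the 6 arrays (columns), coloured by log2(signal + offset) minus the mean of the 2 untreated siCtrl arrays. The siCYLD arrays without inhibitor are the low columns, with member medians of -1.25 and -1.36, and the inhibitor arrays have medians of 0.32 (siCtrl) and 0.13 (siCYLD).

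The duplicates gave similar member levels. The median level, set against the untreated siCtrl mean, was -0.044 and 0.044 on the siCtrl arrays and -1.25 and -1.36 on the siCYLD arrays, while the median of all genes stayed within 0.05 of it. Leaving out both arrays with conflicting labels left siCYLD replicate 2 against siCtrl replicate 1, a difference without a test. There 44 of 45 members were lower, 30 of them at least 2-fold (66.7%, against 3.39% of all genes), with a median of -1.24. The only fit that keeps a test without those arrays is additive and averages in the inhibitor pair. It called 25 members lower, with a median of -0.79, and the calls of CENPK, CENPN, CENPO, SPC24, SPC25, SKA3, ESPL1, PTTG1, AURKB, INCENP, BIRC5, CDCA8, PLK1 and CKAP2L were lost in it. The ACTB 3'/5' signal ratio, a measure of RNA integrity and labelling, was 3.41 and 3.21 in untreated siCtrl and 2.26 and 2.48 in untreated siCYLD. In the inhibitor pair it was 3.67 (siCtrl) and 2.38 (siCYLD). The poly-A spike controls had median log2 levels of 9.47 on both untreated siCtrl arrays and 9.90 and 9.63 on the untreated siCYLD arrays. Any part of RNA integrity, labelling or the spike levels in the result was not tested.

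At the inner kinetochore 8 of 10 genes fell, with a median of -0.93. CENPA, the centromeric histone that marks where a kinetochore forms, read 502 and 571 in siCtrl, 213 and 266 in siCYLD, and 725 then 358 with inhibitor, and fell by 1.12 ± 0.16 (adjusted p = 3.0e-04). The untreated siCYLD arrays lay below every siCtrl array, and the siCYLD inhibitor array stayed below both untreated siCtrl arrays. CENPM, a subunit of the CENPH-CENPI-CENPK-CENPM group that links CENPA nucleosomes to the outer kinetochore, read 71.1 and 105 in siCtrl, 11.5 and 19.1 in siCYLD, and 329 then 129.6 with inhibitor and fell by 1.72 ± 0.36 (adjusted p = 0.00423). Its untreated siCYLD signals lay under the filter level of 79.3, where the offset scale understates a fall. CENPU, of the CENPO-CENPU group that docks PLK1, read 882 and 1109.6 in siCtrl, 413 and 302 in siCYLD, and 1584 then 1481 with inhibitor and fell by 1.44 ± 0.16 (adjusted p = 3.2e-05), and the untreated groups did not overlap. CENPH read 474 and 622 in siCtrl, 283 and 290.3 in siCYLD, and 1116 then 744 with inhibitor, and CENPL read 436 and 496 in siCtrl, 273 and 306 in siCYLD, and 739.7 then 391 with inhibitor. CENPH (-0.88), CENPK (-0.91), CENPN (-0.94, which recognises the CENPA nucleosome), CENPL (-0.66) and CENPO (-0.66) were lower too. The CENPO call was lost without siCtrl replicate 1, siCtrl replicate 2 or siCYLD replicate 2 (adjusted p = 0.0514, 0.0849 and 0.083), and its other kept probe set differed by 0.025. The CENPL call was lost without siCtrl replicate 2 (adjusted p = 0.0575).

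CENPI and CENPW were the inner kinetochore genes not called. CENPI read 84.6 and 77.5 in siCtrl, 46.5 and 4.77 in siCYLD, and 138 then 126 with inhibitor, so that both untreated siCYLD arrays were lower but far apart, and its difference was -1.43 ± 0.48 (adjusted p = 0.0518). Without siCYLD replicate 1 it was -2.22 and called (adjusted p = 2.1e-04), and without siCYLD replicate 2, whose signal lies below the offset, it was -0.63 (adjusted p = 0.364). CENPW, a histone-fold partner of CENPT, read 245 and 306 in siCtrl, 205 and 167 in siCYLD, and 307 then 301 with inhibitor, with a difference of -0.53 ± 0.20 (adjusted p = 0.0744). Its untreated siCYLD arrays were again the lower ones, and without siCYLD replicate 1 it too was called (-0.66, adjusted p = 0.0436). Without siCYLD replicate 2 it was -0.39 (adjusted p = 0.304), and without siCtrl replicate 2 it was -0.38 (adjusted p = 0.334).

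At the outer kinetochore 8 of 11 genes fell, with a median of -1.49. The NDC80 complex, the main microtubule-binding unit, fell in all 4 of its genes. NDC80 read 329 and 277 in siCtrl, 93.4 and 61.0 in siCYLD, and 493 then 305 with inhibitor, and fell by 1.79 ± 0.22 (adjusted p = 8.1e-05), which left 25.5% of the signal. NUF2, its partner in the microtubule-binding head, read 446 and 501 in siCtrl, 126 and 101 in siCYLD, and 687 then 355 with inhibitor and fell by 1.92 ± 0.18 (adjusted p = 6.1e-06). SPC24, one of the inner pair of subunits, read 351.4 and 485 in siCtrl, 98.4 and 141 in siCYLD, and 487 then 476 with inhibitor and fell by 1.68 ± 0.21 (adjusted p = 8.6e-05). In these 3 genes no untreated siCYLD array reached the siCtrl range. SPC25, the other inner subunit, read 83.1 and 121 in siCtrl, 51.7 and 25.5 in siCYLD, and 160.2 then 152 with inhibitor and fell by 1.14 ± 0.35 (adjusted p = 0.0366), a call lost without siCtrl replicate 2 (adjusted p = 0.178) or siCYLD replicate 2 (adjusted p = 0.174).

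The scaffold KNL1, which carries the docking sites of BUB1 and BUB3, read 687 and 878 in siCtrl, 234 and 257 in siCYLD, and 836 then 505 with inhibitor and fell by 1.60 ± 0.16 (adjusted p = 1.0e-05). ZWINT, which binds KNL1, read 982 and 1113 in siCtrl, 350.4 and 376 in siCYLD, and 1528 then 1137 with inhibitor and fell by 1.49 ± 0.13 (adjusted p = 3.9e-06). SKA1, of the Ska complex that follows shrinking microtubule ends, read 602 and 527 in siCtrl, 153 and 117 in siCYLD, and 669 then 506 with inhibitor and fell by 1.95 ± 0.17 (adjusted p = 4.5e-06), the largest fall in this layer. SKA3 of the same complex fell by 0.71 ± 0.19 (adjusted p = 0.0198), and without siCtrl replicate 1 that call was lost (-0.49, adjusted p = 0.144). MIS12, DSN1 and NSL1, subunits of the MIS12 complex that anchors the NDC80 complex to the inner kinetochore, were not called. PMF1, another subunit and no member of the 45, was not called either (-0.24 ± 0.14, adjusted p = 0.265). MIS12 read 864 and 859.6 in siCtrl, 823 and 953 in siCYLD, and 1359 then 1254 with inhibitor, a knockdown difference of 0.038 ± 0.12 (adjusted p = 0.861). It was the member whose untreated groups overlapped. DSN1 read 237 and 207 in siCtrl, 194 and 182 in siCYLD, and 241 then 261 with inhibitor (-0.22 ± 0.19, adjusted p = 0.463), and NSL1 read 876 and 819 in siCtrl, 744 and 626 in siCYLD, and 936 then 795 with inhibitor (-0.31 ± 0.13, adjusted p = 0.123). For both, the untreated siCYLD signals were lower than the untreated siCtrl signals, by a difference that was not called.

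Both genes of the fibrous corona, the outermost layer on unattached kinetochores, fell. CENPE, a kinesin that carries chromosomes to the spindle equator, fell by 1.35 ± 0.19 (adjusted p = 2.5e-04). CENPF, a large coiled-coil protein of the corona, fell by 1.38 ± 0.17 (adjusted p = 5.9e-05).

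Of 8 checkpoint and anaphase genes, 7 fell, with a median of -1.38. BUB1, the kinase that brings checkpoint and passenger proteins to the kinetochore, read 538 and 535 in siCtrl, 166 and 129 in siCYLD, and 897 then 534 with inhibitor, and fell by 1.77 ± 0.16 (adjusted p = 6.8e-06). TTK, the kinase (MPS1) that starts the checkpoint signal, read 450.0 and 391 in siCtrl, 88.7 and 81.8 in siCYLD, and 514 then 337 with inhibitor and fell by 2.10 ± 0.18 (adjusted p = 4.1e-06), leaving 20.3%. CDC20, which activates the anaphase-promoting complex and is the target of the checkpoint, read 2371 and 2475 in siCtrl, 802 and 759 in siCYLD, and 3009.9 then 2964 with inhibitor and fell by 1.61 ± 0.11 (adjusted p = 4.9e-07). For all 3 the untreated siCYLD arrays stood apart from the siCtrl arrays. BUB1B, of the complex that blocks CDC20, read 606 and 763 in siCtrl, 277 and 215 in siCYLD, and 1139.8 then 780.0 with inhibitor and fell by 1.42 ± 0.16 (adjusted p = 4.3e-05). MAD2L1, of the same complex, read 821 and 1058 in siCtrl, 395 and 354 in siCYLD, and 1432 then 1216 with inhibitor and fell by 1.28 ± 0.15 (adjusted p = 3.6e-05). In both, untreated siCYLD signals lay below the siCtrl signals without overlap. Also lower were ESPL1, the gene for separase (-1.34), and PTTG1, the gene for its inhibitor securin (-1.02). PTTG1 rests on 1 probe set of the _x_at kind, and near-identical PTTG copies may share its signal. BUB3, a constitutive partner of BUB1 and BUB1B, was not called: it read 3930.4 and 4178 in siCtrl, 3437 and 3525 in siCYLD, and 4357 then 4831 with inhibitor, a difference of -0.22 ± 0.09 (adjusted p = 0.121). Its 3 other kept probe sets differed by -0.17 to -0.23.

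All 4 genes of the chromosomal passenger complex fell. This complex corrects faulty attachments at the centromere and later acts at the midzone. The kinase gene AURKB read 1164 and 1478 in siCtrl, 527 and 487 in siCYLD, and 1786 then 1924 with inhibitor, and fell by 1.34 ± 0.14 (adjusted p = 1.3e-05). BIRC5, which encodes survivin, read 699 and 618 in siCtrl, 217 and 183 in siCYLD, and 848 then 916 with inhibitor, and fell by 1.64 ± 0.15 (adjusted p = 5.8e-06). Its 3 other kept probe sets were lower too, by -0.50 to -1.97. In both genes the siCYLD arrays without inhibitor were the lowest of the 6 and the siCYLD array with inhibitor the highest. CDCA8, which encodes borealin, fell by 1.30 ± 0.11 (adjusted p = 3.8e-06). The scaffold gene INCENP fell by 0.89 ± 0.26 (adjusted p = 0.0252), a call lost without siCtrl replicate 1, siCYLD replicate 1 or siCtrl replicate 2 (adjusted p = 0.0634, 0.121 and 0.0774).

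**Figure D2:**
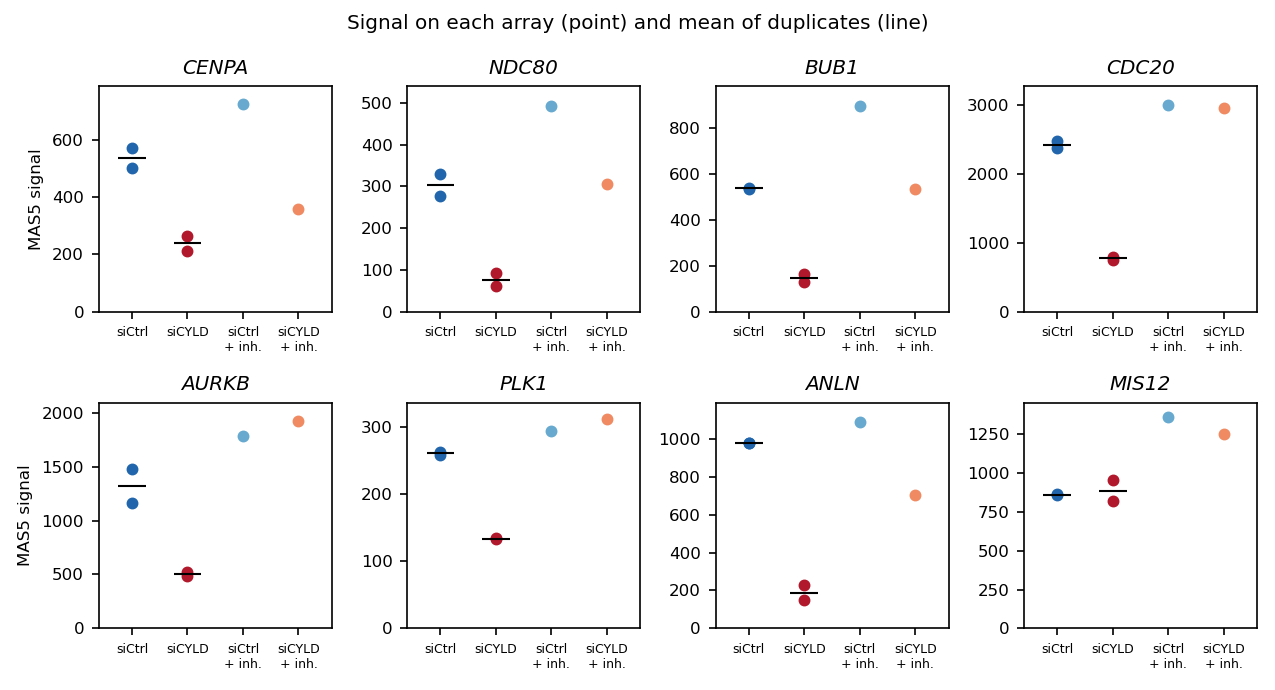
MAS5 signal (linear axis from 0) of 8 genes by group, 1 point per array, with the mean of duplicates as a line and single inhibitor arrays as lone points. In 7 of them both siCYLD points without inhibitor lie below both siCtrl points, while MIS12 overlaps.

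All 7 kinase and spindle genes fell, with a median of -1.51. CKAP2L, a spindle and midbody protein gene, fell most of all 45. It read 215 and 185 in siCtrl, 8.67 and 9.56 in siCYLD, and 238 then 264 with inhibitor, and fell by 3.10 ± 0.30 (adjusted p = 8.2e-06). Its untreated siCYLD signals were below the offset itself, so the size of the fall is bounded by the scale. TPX2, which activates AURKA on spindle microtubules, read 958 and 1209 in siCtrl, 371 and 228 in siCYLD, and 1363 then 1297 with inhibitor and fell by 1.83 ± 0.19 (adjusted p = 1.8e-05). NEK2, a kinase that separates centrosomes, read 468 and 566 in siCtrl, 172 and 94.5 in siCYLD, and 462 then 323 with inhibitor and fell by 1.88 ± 0.23 (adjusted p = 7.1e-05). SPAG5, which encodes the kinetochore and spindle protein astrin, read 367 and 463 in siCtrl, 113 and 159.7 in siCYLD, and 462 then 334 with inhibitor and fell by 1.51 ± 0.20 (adjusted p = 1.5e-04). In these genes untreated siCtrl and siCYLD arrays were separated by more than the gap within either pair. AURKA, the centrosomal Aurora kinase, read 831 and 927 in siCtrl, 436 and 466 in siCYLD, and 1365 then 955 with inhibitor and fell by 0.94 ± 0.13 (adjusted p = 1.8e-04). PLK1, a kinase of centrosomes, kinetochores and the midzone, read 262 and 258 in siCtrl, 133 and 134 in siCYLD, and 293 then 311 with inhibitor and fell by 0.88 ± 0.19 (adjusted p = 0.005). Its call was lost in the additive model (-0.56, adjusted p = 0.0754). CKAP2, which stabilises spindle microtubules, fell by 1.24, while its other kept probe set differed by only -0.047.

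All 3 cytokinesis genes fell. ANLN, which encodes anillin, the scaffold of the contractile ring, read 981 and 982 in siCtrl, 228 and 149.6 in siCYLD, and 1090.1 then 706 with inhibitor, and fell by 2.31 ± 0.17 (adjusted p = 1.1e-06). Its other kept probe set differed by -2.05. PRC1, which bundles the antiparallel microtubules of the midzone, read 646 and 785 in siCtrl, 194 and 197 in siCYLD, and 1014 then 718 with inhibitor and fell by 1.78 ± 0.15 (adjusted p = 2.8e-06). The untreated siCYLD arrays of both were below the siCtrl arrays without overlap. ECT2, the exchange factor that switches on RhoA at the furrow, fell by 0.79 ± 0.13 (adjusted p = 8.7e-04), although its call was lost for the mean of its probe sets (-0.45, adjusted p = 0.0651). Over the whole set, 18 members had more than 1 kept probe set. Of the 26 probe sets that did not represent their gene, 24 were lower in siCYLD and 2 were higher, those of CENPO (0.025) and NSL1 (0.071).

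Many promoters of these genes hold sequence elements that were not themselves used to choose the genes. Many genes of this kind are known targets of DREAM and MYBL2-MuvB, so a high share of the element these complexes bind could be anticipated from the choice. RefSeq windows (GRCh38.p14) of 300 bases, from 250 before the transcription start to 50 after it, were held for 36 of the 45 genes (not for AURKA, BIRC5, BUB3, CENPH, CENPL, CENPM, KNL1, TPX2 and TTK). They were searched on both strands for the cell cycle genes homology region (CHR, TTTGAA or TTCGAA), the element bound by DREAM and MYBL2-MuvB, for the NF-Y element CCAAT, and for E2F elements (TTTCCCGC, TTTGGCGC, TTTCGCGC or TTTGCCGC). CHR and CCAAT hits can lie on either strand and do not overlap in the promoters printed here. A gene with several starts counted once if any of its windows held the element. A CHR was in 24 of 36 members (66.7%), against 19.5% of all 27305 genes in the table and 15.5% of the 10447 tested genes with a window. It began within 50 bases of the start in 23 of 36 (63.9%), against 6.24% of all genes and 4.89% of tested genes. CCAAT was in 63.9% of members, 39.7% of all genes and 42.8% of tested genes, and both elements together in 44.4%, 7.85% and 6.44%. E2F elements were in 3 of 36 members (8.33%), 3.99% of all genes and 6.53% of tested genes, so the members' share was near that of tested genes. Of the 31 members with a window that fell, 23 held a CHR, and of the 5 that were not called 1 did, CENPW. A match is a description of these letters and was not tested as a site. The windows printed are those of the 3 genes with a CHR that fell most and of the 2 genes with the smallest differences among those with a window, with CHR and CCAAT letters in capitals, read 5′ to 3′ along the gene.
CKAP2L (chr2:112764560-112764859, minus strand): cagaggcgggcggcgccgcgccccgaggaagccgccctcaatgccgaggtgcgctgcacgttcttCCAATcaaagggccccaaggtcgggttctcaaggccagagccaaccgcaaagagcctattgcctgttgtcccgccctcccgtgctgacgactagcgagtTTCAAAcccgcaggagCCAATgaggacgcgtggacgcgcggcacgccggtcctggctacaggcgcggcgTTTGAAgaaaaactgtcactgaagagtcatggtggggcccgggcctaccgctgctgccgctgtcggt
ANLN (chr7:36389612-36389911, plus strand): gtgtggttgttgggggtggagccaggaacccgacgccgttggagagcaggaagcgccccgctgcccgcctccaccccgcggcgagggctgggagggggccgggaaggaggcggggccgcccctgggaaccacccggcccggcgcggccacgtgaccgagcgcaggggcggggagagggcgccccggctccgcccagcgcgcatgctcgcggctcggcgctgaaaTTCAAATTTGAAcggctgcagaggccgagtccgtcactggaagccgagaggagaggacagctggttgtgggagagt
SKA1 (chr18:50374796-50375095, plus strand): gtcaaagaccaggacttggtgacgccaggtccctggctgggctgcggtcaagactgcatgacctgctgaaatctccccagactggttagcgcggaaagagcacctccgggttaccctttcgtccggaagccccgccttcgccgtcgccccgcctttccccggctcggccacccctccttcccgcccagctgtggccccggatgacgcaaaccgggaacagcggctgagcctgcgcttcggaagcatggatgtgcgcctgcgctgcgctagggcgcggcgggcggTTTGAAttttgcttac
MIS12 (chr17:5486124-5486423, plus strand): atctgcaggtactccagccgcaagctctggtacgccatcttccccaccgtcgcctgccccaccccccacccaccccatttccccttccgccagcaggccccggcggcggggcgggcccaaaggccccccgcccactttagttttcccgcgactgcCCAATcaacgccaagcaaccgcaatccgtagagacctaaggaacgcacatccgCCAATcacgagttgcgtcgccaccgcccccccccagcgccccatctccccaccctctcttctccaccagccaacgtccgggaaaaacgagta
DSN1 (chr20:36773714-36774013, minus strand): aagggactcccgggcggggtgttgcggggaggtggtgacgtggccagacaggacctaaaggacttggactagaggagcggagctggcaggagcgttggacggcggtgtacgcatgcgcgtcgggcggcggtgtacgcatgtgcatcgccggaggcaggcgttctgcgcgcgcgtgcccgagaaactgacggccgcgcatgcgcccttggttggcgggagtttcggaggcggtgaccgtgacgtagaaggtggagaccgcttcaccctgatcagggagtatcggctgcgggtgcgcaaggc
CKAP2L has CHR letters starting 86 and 17 bases before its start, the first on the reverse strand. ANLN carries a reverse and a forward CHR side by side, starting 26 and 20 bases before the start, and no CCAAT. In SKA1 the single CHR begins at base 35 of the transcript. The MIS12 window, the first of its 2 starts, holds CCAAT letters at 95 and 42 bases before the start and an E2F element but no CHR, and DSN1 holds none of the 3 elements.

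Under the ALK5 inhibitor, the median mitotic gene of siCYLD cells, on 1 array, was near the level of untreated siCtrl cells. Beside the siCtrl inhibitor array, this array was lower in 37 of 45 members (50.8% of all genes), at a median of 82.7% of the signal. Against the 2 untreated siCYLD arrays, the siCYLD inhibitor array was higher in all 45 members, by the probe set that represents each gene (43.0% of all genes lay that way). The fit called 40 of them higher and 0 lower, against 12.2% and 10.2% of all genes (43 and 0 at an unadjusted p below 0.05, limma). The median rise was 1.49, against 0.016 over all genes. This test sets 1 array against 2 and assumes that the lone array varies as the duplicates did. Without siCYLD replicate 1, which has a conflicting label, 40 were again called. The siCYLD inhibitor signal had a median of 109% of the mean untreated siCtrl signal, from 62.5% for NEK2 to 175% for SKA3. In 29 of 45 members it lay at or above the lower untreated siCtrl array, as it did in 57.4% of all genes.

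The largest rises in siCYLD cells were those of CKAP2L (3.48 ± 0.36, adjusted p = 2.5e-05), CENPM (2.23 ± 0.44, adjusted p = 0.00327), BIRC5 (2.11 ± 0.18, adjusted p = 6.3e-06) and TPX2 (2.09 ± 0.23, adjusted p = 4.7e-05). CENPU, AURKB and CDC20 rose by 2.02 ± 0.20, 1.89 ± 0.17 and 1.90 ± 0.13. The untreated siCYLD arrays of these genes are also the low arrays of the knockdown comparison, so that both comparisons share them. CENPI rose by 1.98 ± 0.59 (adjusted p = 0.03), a call lost without siCYLD replicate 2 (1.18, adjusted p = 0.0851). MIS12, not called in the knockdown, rose by 0.49 ± 0.15 (adjusted p = 0.0336), and the call was lost without siCYLD replicate 1 (adjusted p = 0.156). BUB3 rose by 0.47 ± 0.12 (adjusted p = 0.0114). The 5 members not called were CENPA (0.56), CENPL (0.42), CENPW (0.65), DSN1 (0.44) and NSL1 (0.22). Other kept probe sets of CENPO (-0.32) and ECT2 (-0.27) were lower on the siCYLD inhibitor array. For the mean of its probe sets the rise was 0.39 in CENPO and 0.18 in ECT2.

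In siCtrl cells fewer members were called higher with the inhibitor. The siCtrl inhibitor array read above both untreated siCtrl arrays in 40 of 45 members, compared with 38.8% of all genes. Of the 45, 9 were called higher and 0 lower, against 5.02% and 4.34% of all genes (18 and 0 at an unadjusted p below 0.05, limma), with a median of 0.32. CENPM rose by 1.75 ± 0.44 (adjusted p = 0.0262), from 71.1 and 105 to 329, and CENPH by 1.02 ± 0.19 (adjusted p = 0.00527), from 474 and 622 to 1116. The others were BUB1B (0.73), BUB1 (0.72), CENPL (0.65), MIS12 (0.65), AURKA (0.63), MAD2L1 (0.61) and ZWINT (0.54). Without siCtrl replicate 1 they numbered 2, with no filter on dim probe sets 1, and without the intensity trend in the variance 0 (14 at an unadjusted p below 0.05, limma). Summed fibroblast and endothelial marker signals were also higher on the inhibitor arrays (1785 and 1510, and 983 and 868, for siCtrl and siCYLD), leukocyte sums were 219.6 and 294.6, and their part in these rises was not tested. Across both siRNAs, an additive fit called 31 members higher and 0 lower, against 11.2% and 8.82% of all genes (41 and 0 at an unadjusted p below 0.05, limma). Without the siCYLD inhibitor array, which leaves the inhibitor in siCtrl cells alone, it called 7.

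With the inhibitor present, siCYLD and siCtrl signals of most members lay closer together than without it. The 2 inhibitor arrays are 1 against 1, with no replicate check and no test, and share no array with the untreated comparison. The siCYLD array was lower in 37 of 45 members (50.8% of all genes) but at least 2-fold lower in 1, CENPM, against 2.81% of all genes, and the median difference was -0.27. The median member had 82.7% of the siCtrl signal in the pair, compared with 37.7% untreated. In 43 of 45 members the absolute difference was smaller in the pair than untreated. The exceptions were CENPL (-0.66 untreated, -0.89 in the pair) and MIS12 (0.038 and -0.12). The share of all genes with a smaller difference in the pair was not taken, and most members had a large untreated difference to begin with. The passenger complex had a median pair difference of 0.041, with values of 0.11 for AURKB, 0.11 for BIRC5, -0.024 for INCENP and -0.041 for CDCA8. CDC20 (-0.022), ESPL1 (-0.012), SPC24 (-0.031) and TPX2 (-0.071) were also close to 0. CENPA (-0.99), NUF2 (-0.92), BUB1 (-0.73), KNL1 (-0.71) and CENPF (-0.69) were among those with a lower siCYLD signal. CENPO (0.48) and SKA3 (0.19) were higher in siCYLD, but the other kept probe set of CENPO went the opposite way (-0.49).

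**Figure D3:**
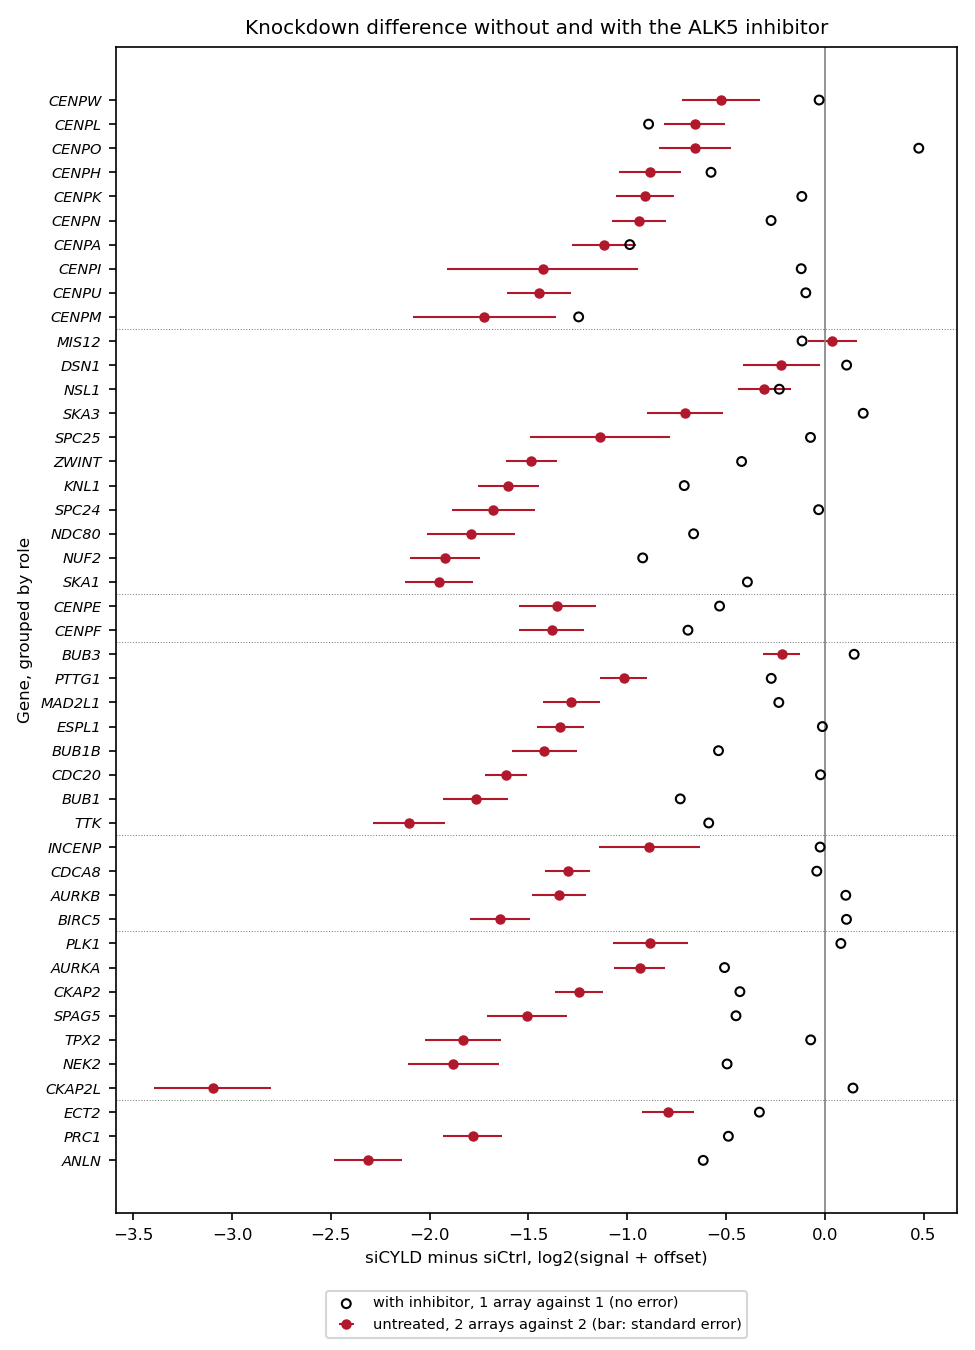
Difference siCYLD minus siCtrl on the log2(signal + offset) scale for each gene, untreated (filled, bars are standard errors, 2 arrays against 2) and with the inhibitor (open, 1 against 1, no error). The open points lie nearer to 0 for 43 of 45 genes (no share over all genes was taken), with a median of -0.27 against -1.34.

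The difference between the 2 knockdown responses was itself tested as an interaction. It was positive in 43 of 45 members, with a median of 1.0 against 0.025 over all genes, and 14 were called positive and 0 negative, against 0.982% and 0.688% of all genes (32 and 0 at an unadjusted p below 0.05, limma). The 14 were CKAP2L (3.24 ± 0.51, adjusted p = 0.00585), TPX2 (1.76 ± 0.33), BIRC5 (1.75 ± 0.26), ANLN (1.70 ± 0.30), SPC24 (1.65 ± 0.36), CDC20 (1.59 ± 0.19, adjusted p = 8.5e-04), SKA1 (1.56 ± 0.30), TTK (1.52 ± 0.32), AURKB (1.45 ± 0.23), CENPU (1.35 ± 0.28), ESPL1 (1.33 ± 0.20), PRC1 (1.29 ± 0.26), CDCA8 (1.26 ± 0.20) and ZWINT (1.06 ± 0.22). The interaction uses the same untreated arrays as the knockdown comparison. The called genes included 3 of the 4 passenger complex genes and 1 of 10 inner kinetochore genes. CENPA had an interaction of 0.13 ± 0.28 (adjusted p = 0.886). The calls depended on the moderation of the variance and on the number of genes tested: without the intensity trend 0 were called (30 at an unadjusted p below 0.05, limma) and with no filter 2, CDC20 and CDCA8. Without siCYLD replicate 1 there were 23. The SPC24 call was lost without siCtrl replicate 2 (1.42, adjusted p = 0.0628) and the TTK call without siCtrl replicate 1 (1.42, adjusted p = 0.06). With the 2 arrays of conflicting label left out, the interaction has no test. Its value was positive in 42 of 45 members, against 6951 of 12935 genes, with a median of 0.97 against 0.041.

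Among 139 other tested genes of mitosis, in 8 lists that hold none of the 45, 62 were lower with the knockdown and 5 higher. The shares of all genes tested were 11.8% lower and 9.49% higher. The lists were chosen with earlier results of these data known. Mitotic entry genes were lower in 13 of 15 and higher in 0, with a median of -1.20. CCNB2 (cyclin B2, -2.25), CDC25C, the phosphatase that switches on CDK1 (-2.01), and CDK1 itself (-1.91) fell most, and ARPP19 differed least (0.24). Spindle assembly genes were lower in 13 of 25 and higher in 0, with a median of -0.48. The motor gene KIFC1 (-3.04), the hyaluronan receptor and spindle gene HMMR (-2.28) and DLGAP5 (-1.98), which stabilises kinetochore fibres, led, and the centrosome gene PCNT was at -0.014. Other inner kinetochore genes were lower in 4 of 9 and higher in 1. HJURP, the chaperone that loads CENPA, read 376 and 325 in siCtrl, 89.8 and 83.4 in siCYLD, and 492 and 319.8 in the siCtrl and siCYLD inhibitor arrays and fell by 1.83, ahead of ITGB3BP (-1.04) and OIP5 (-1.03). CENPT was the higher one (0.57), a count near its share of all genes, and MIS18A was at -0.30. Other outer kinetochore and centromere protection genes were lower in 8 of 19 and higher in 0, with KIF2C (-1.78), SGO2 (-1.11) and HASPIN (-1.05) first and ZW10 at -0.091.

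Genes of the cleavage furrow and abscission were lower in 8 of 19 and higher in 2, a count higher that was near its share of all genes. SHCBP1 (-2.17), the midzone kinesin gene KIF20A (-2.13) and the abscission gene CEP55 (-1.80) fell, while SEPTIN6 (0.91) and the non-muscle myosin gene MYH9 (0.46) rose, and SPAST was at 0.013. In the anaphase-promoting complex list 4 of 17 were lower and 0 higher, with a median of -0.13. They included FBXO5, an inhibitor of the complex (-1.43), its E2 enzyme gene UBE2C (-1.39) and the subunit gene ANAPC16 (-0.40), while the subunit gene CDC16 was at -0.048. In the cohesin list 5 of 12 were lower and 0 higher, with a median of -0.21, led by CDCA5, which encodes sororin (-1.20), then SMC1A (-0.70) and SMC3 (-0.56), with STAG1 at -0.035. Over all genes tested 11.8% were lower and 9.49% higher, and the median was -0.041.

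Transcription factors and regulators of these promoters were lower in 7 of 23 and higher in 2, against 11.8% and 9.49% of all genes tested. The count higher was near its share of all genes. FOXM1, an activator of G2 and M phase genes, read 2574 and 2333 in siCtrl, 967 and 853 in siCYLD, and 2939 and 3057 in the siCtrl and siCYLD inhibitor arrays. It fell by 1.42 with the knockdown and had an interaction of 1.47 (adjusted p = 0.00259, limma). MYBL2, the B-MYB subunit of the activating MuvB complex, read 651 and 480.4 in siCtrl, 147 and 154 in siCYLD, and 751 and 678 in the siCtrl and siCYLD inhibitor arrays and fell by 1.79. E2F8 was also lower (-1.96) and TFDP2 was at -0.0036. CDKN1A, which encodes the CDK inhibitor p21, and E2F3 (0.37) were higher. CDKN1A read 5926 and 6304 in siCtrl, 8961 and 9809.8 in siCYLD, and 3676 and 2935 in the siCtrl and siCYLD inhibitor arrays. It rose by 0.62 with the knockdown and had an interaction of -0.94 (adjusted p = 0.00949, limma). With the inhibitor it differed by -0.73 in siCtrl cells (adjusted p = 0.00177, limma) and by -1.67 in siCYLD cells (adjusted p = 1.2e-06, limma). The untreated siCYLD arrays were thus the highest for CDKN1A and the lowest for FOXM1 and MYBL2, without overlap.

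**Figure D4:**
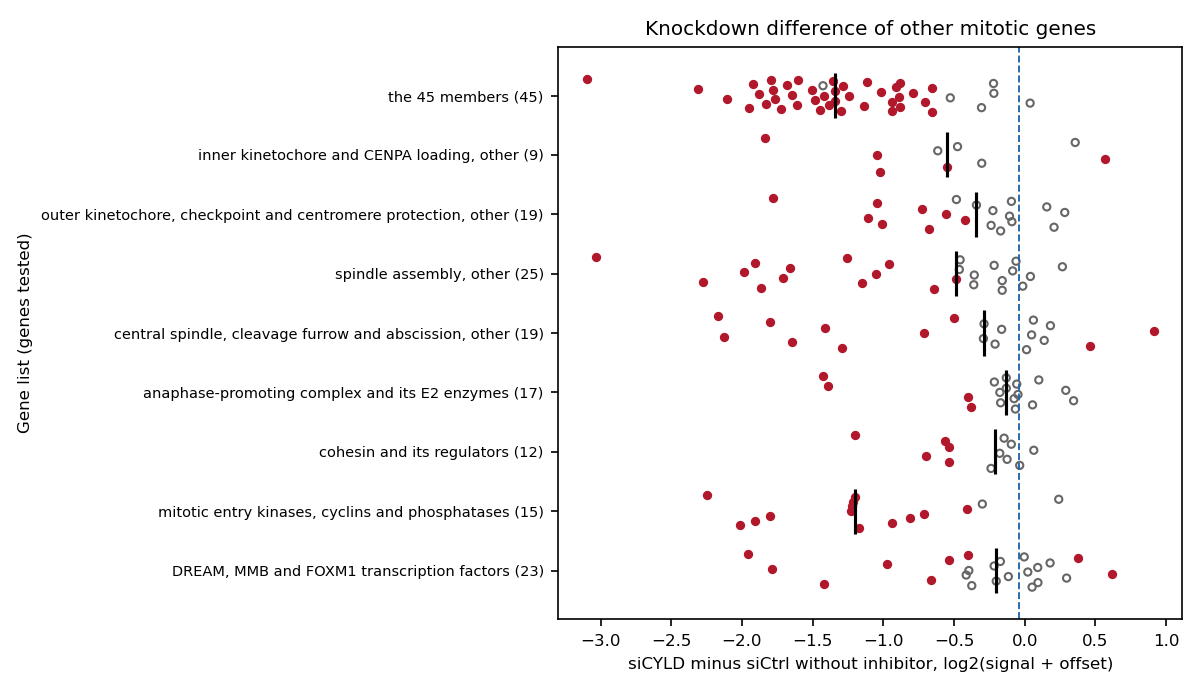
Knockdown difference without inhibitor, log2(signal + offset), for the 45 members and the genes of 8 other mitotic lists (1 point per gene, filled if called at an adjusted p below 0.05, black line at the list's median, dashed line at the median of all genes, vertical spread only to separate points). The members and the mitotic entry genes have the lowest medians, -1.34 and -1.20.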

How the data were processed

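Total RNA (2 µg) of 6 samples of SAS cells was labelled for Affymetrix arrays. The deposited values are linear intensity (signal) values, 1 for each probe set on each array, and the submitters' processing notes name MAS5 as their source; no version of it was used here. The trimmed mean, leaving out 2% at each end, was 500.1 on every array. Precision is limited by having 6 arrays. Of 54675 probe sets, 41091 had 1 gene symbol, 1801 several, 11721 none, and 62 were controls. RefSeq's gene table held the Entrez identifiers of 41037 and altered 0 of their symbols.

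The analysis took log2 of signal plus 16.1 (percentile 20 of all values) without rescaling. A probe set was kept when the highest of its 4 group means was above the median of all values (a signal of 79.3). This left 24537, and the brightest represented its gene. limma 3.58.1 (R 4.3.3) fitted 4 group means with an intensity trend (2 residual and 10.9 prior degrees of freedom), and an additive model for the inhibitor across both siRNAs (3 and 7.98). Variation of the single inhibitor arrays was taken from the duplicates. The fits were tested on simulated data. Alternatives covered the offset, filter, quantile scaling, probe set choice, moderation, model, replicate block and left-out arrays. Values of 1 array against 1, without the arrays with conflicting labels, were chosen after seeing the data. Members and gene lists were chosen with earlier results of these data known.

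Signals on every array were given for members that fell by at least 1.5, members not called in the knockdown, up to 10 called members with the largest difference in the interaction and each inhibitor comparison, and a defining gene of each role. From each other list, up to 3 called genes in each direction and the gene of smallest difference were named. Figures were drawn with matplotlib 3.10.9.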

Additional observations from a re-analysis of the deposited data

Results flagged for a closer look

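The response to the CYLD siRNA differed between cells without and with the ALK5 inhibitor, by the interaction term of the limma fit (adjusted p below 0.05), for 14 of the 45 genes, and each difference was positive. On the log2 scale, the siCYLD minus siCtrl difference with the inhibitor minus that without it was CKAP2L at 3.24, TPX2 at 1.76, BIRC5 at 1.75, ANLN at 1.70, SPC24 at 1.65, CDC20 at 1.59, SKA1 at 1.56, TTK at 1.52, AURKB at 1.45, CENPU at 1.35, ESPL1 at 1.33, PRC1 at 1.29, CDCA8 at 1.26 and ZWINT at 1.06. The 2 inhibitor arrays have no replicates of their own, and 0 of these calls remained without the intensity trend (30 members at an unadjusted p below 0.05, limma).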

How the results depend on the processing

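Of 45 knockdown differences, 25 kept their direction and their side of the threshold under every alternative run. The knockdown count stayed at 35 to 40 of 45 lower, with 0 higher, when any 1 untreated array was left out, and moved to 25 in the additive model without both arrays with conflicting labels. Reversals were seen for NSL1 without _x_at and _s_at probe sets (0.071) and for MIS12 without siCYLD replicate 2 (-0.066) and in the additive model (-0.013), none of them called. With 1 untreated array left out MIS12 ran from -0.066 to 0.14. With the replicate block 41 members were lower and CENPI and CENPW became called. The replicate numbers share no stated day or culture, and deviations of same-numbered arrays correlated at 0.045 over genes.

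The interaction count of 14 became 2 with no filter, 8 for the mean of probe sets, 7 of the 31 members left without _x_at and _s_at probe sets, and 0 with no trend, and ran from 13 to 23 with 1 untreated array left out. The inhibitor count in siCtrl cells, 9, became 5 with an offset of 1, 1 with no filter, 5 for the mean of probe sets, 4 of 31 without _x_at and _s_at probe sets and 0 with no trend, and ran from 2 to 11 with 1 array left out. In siCYLD cells it was 40 with any 1 untreated array left out. Across both siRNAs, 31 became 20 with no filter, 16 of 31 without _x_at and _s_at probe sets and 6 with no trend, and ran from 7 to 40 with 1 array left out. In the inhibitor pair 22 of 31 members were lower without _x_at and _s_at probe sets, and the count at least 2-fold lower was 2 with an offset of 1 and 0 with the offset at the median. Fewer members were tested where probe set types were left out, and more genes with no filter; otherwise the cause was not tested. Over all genes the knockdown calls went from 2757 to 1219 with no trend and 1052 in the additive model without both arrays, and the interaction calls from 216 to 33 with no filter, 95 for the mean of probe sets, 134 without _x_at and _s_at probe sets, 0 with no trend, and 455 and 361 without siCYLD replicate 1 and 2. The inhibitor calls over all genes went in siCtrl cells from 1211 to 478 with no filter and 35 with no trend, in siCYLD cells from 2900 to 1819 and 1055, and across both siRNAs from 2586 to 1087 with no trend, 1325 without both arrays and 1232 to 2888 with 1 array left out. Signals near the floor limit CKAP2L, CENPM, CENPI and SPC25 among the members, and KIFC1, KIF20A and E2F8 among the named genes of other lists.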
